A study of Rattus norvegicus with 16 samples.

Results

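Long protected stretches are protein-protected sites (PPS) that run for 150 bp or more along the RNA of cultured rat cortical neurons. They were selected on length alone, on the plus strands of chromosomes 11, 12, 16, 17, 18, 19 and 20, in 4 deposited lists of PPS. The rule found 772 long PPS among 36392 PPS of these 7 strands, and the lists hold 329742 PPS in the whole series. Their length was therefore chosen by the rule and is given as a description.

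Neurons were prepared from the cortices of embryonic day 18 Sprague–Dawley CD rats and were either left as control cultures or treated with 10 µM NMDA, an agonist of the glutamate receptors named after it that causes excitotoxic injury when in excess. The labels name cultures of 15 or 21 days in vitro and treatments of 4 or 24 hours without saying which of these the libraries had. The replicates of either group bear the numbers 2 and 3 and are called control 2, control 3, NMDA 2 and NMDA 3 here. Each contributed 4 of the 16 libraries and 1 list, so each list is 1 replicate, and the labels do not say that replicates came from separate cultures, so p-values measure the spread between lists, which may be technical. The library text describes nuclei purified from tissue although the cells were cultured, so it is unclear if the RNA was nuclear, and no cell type marker could be read because the lists hold positions, peak names and scores but no expression values.

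In protein interaction profile sequencing (PIP-seq), crosslinked RNA is cut by a nuclease while proteins are bound, or after the proteins have been digested away. A stretch that resists cutting only in the presence of protein is called as a peak, and overlapping peaks are merged into a PPS. RNase ONE (ssRNase) cuts unpaired RNA and RNase V1 (dsRNase) cuts paired RNA. A single RNA-binding domain contacts a short run of bases, whereas arrays of proteins on one transcript, or large ribonucleoprotein particles, can shield longer runs. All positions are on the rn6 build, plus strand, and no gene, exon, intron or untranslated region was assigned to them because no annotation or sequence of that build was used.

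Long PPS were a small and uneven fraction of the lists. Control 2 held 224 long PPS of 8777, control 3 held 45 of 8903, NMDA 2 held 97 of 9189 and NMDA 3 held 406 of 9523. Long PPS made up 2.55% of control 2 (exact 95% interval 2.23 to 2.90%), 0.505% of control 3 (0.369 to 0.676%), 1.06% of NMDA 2 (0.857 to 1.29%) and 4.26% of NMDA 3 (3.87 to 4.69%). These intervals cover counting error over PPS only, and the read depth behind a PPS is unknown. They treat PPS as independent, although long PPS lay crowded together in control 2, NMDA 2 and NMDA 3 as described below, so they are likely too narrow there. No 2 of the 4 intervals overlapped, which for this reason does not establish that lists of one treatment differed beyond counting error. The groups overlapped: the highest list and the second lowest were both NMDA.

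Control lists averaged 1.53% ± 1.45 long PPS and NMDA lists 2.66% ± 2.27 (SD, n = 2 lists each). The difference of 1.13 percentage points was smaller than the spread within either group, with p = 0.667 in an exact two-sided permutation test. With 2 lists against 2 this test cannot go below 0.333. Numbers gave the same picture, with 134.5 ± 126.6 long PPS per control list and 251.5 ± 218.5 per NMDA list, exact permutation p = 0.667. Weighted by length, long PPS held 8.66% of the protected bases in control 2, 1.86% in control 3, 3.55% in NMDA 2 and 14.98% in NMDA 3 (exact permutation p = 0.667). Adjusted over the 8 comparisons of NMDA with control made for long PPS, these 3 p-values were each 0.762. Without NMDA 3 the direction turned: the number differed by -37.5, the share by -0.473 points and the protected bases by -1.70 points, NMDA minus control.

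The order of the lists was different on the strands outside the 7. Earlier work on these lists found shared, strand-switched or truncated blocks of peaks there. On all other chromosome strands the long share was 1.86% in control 2, 2.27% in control 3, 1.36% in NMDA 2 and 2.79% in NMDA 3, so control 3 was second highest there and lowest on the 7 plus strands. Of 5979 long PPS on those other strands, 1006 (16.8%) had the same start and end in another list, compared with 19 of 772 (2.46%) on the 7 strands. Whether the identical coordinates bear on the long shares elsewhere was not tested. Chromosome by chromosome on the 7 strands, the 2 groups did not separate in the long share on any of the 7, neither with NMDA higher (0 of 7, 0%) nor with control higher (0 of 7, 0%), and adjusted exact permutation p-values ran from 0.933 to 1. Chromosome 18 carried most long PPS, 134 or 17.4% of all, and chromosome 19 fewest, 92. Chromosome 17 was the single one on which NMDA 3 (2.01% long) lay below control 2 (2.61%).

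Most long PPS were under 200 bp. Their median length was 182 bp in control 2, 169 bp in control 3, 170 bp in NMDA 2 and 185 bp in NMDA 3, compared with 46 to 54 bp for shorter PPS. Over the 4 lists 485 PPS were 150 to 199 bp long, 204 were 200 to 299 bp and 83 were 300 bp or more. Of the last class NMDA 3 held 56, control 2 held 23, and control 3 and NMDA 2 held 2 each. The longest PPS measured 624 bp in control 2, 407 bp in control 3, 354 bp in NMDA 2 and 1308 bp in NMDA 3. At the threshold itself PPS were alike on both sides. The 225 PPS of 140 to 149 bp averaged 1.76 peaks, with 57.8% holding both RNases and 79.1% of midpoints covered in another list. The 146 PPS of 150 to 159 bp averaged 1.77 peaks, with 57.5% and 76.0% for the same measures.

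Long PPS were mostly composites of peaks from both nucleases in control 2, NMDA 2 and NMDA 3. In control 3 most were a single peak (32 of 45). A long PPS held on average 2.25 peaks in control 2, 1.49 in control 3, 2.03 in NMDA 2 and 2.33 in NMDA 3, and a shorter PPS 1.07 to 1.15. The number of merged peaks follows length by construction, so this difference is a description. Every merged PPS joined at least 1 ssRNase and 1 dsRNase peak (0 exceptions among 4256 on the 7 strands and 32757 in the series), so peaks of a single RNase were never joined on their own. Per 100 bp, long PPS held fewer peaks than shorter ones, 1.06, 0.793, 1.11 and 1.03 against 1.93, 2.12, 2.07 and 2.03 in the same order of lists. This density is divided by the length the rule selected on, so it too is a description.

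The makeup by RNase differed between lists. Long PPS protected from both RNases numbered 150 of 224 (67.0%) in control 2, 13 of 45 (28.9%) in control 3, 60 of 97 (61.9%) in NMDA 2 and 286 of 406 (70.4%) in NMDA 3. Control 3 stood below the other lists, and the groups overlapped. The control mean was 47.9% ± 26.9 and the NMDA mean 66.1% ± 6.07 (SD, n = 2; exact permutation p = 0.667, adjusted 0.762). Without control 3 the difference of 18.2 points became -0.815. Among shorter PPS the same class made up 12.1%, 6.67%, 9.13% and 14.2%. This class is identical to the merged PPS, so its excess in long over shorter PPS follows length by construction.

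Single-nuclease long PPS came from one RNase or the other depending on the list. PPS of ssRNase alone were 24.1% of long PPS in control 2 (54), 51.1% in control 3 (23), 1.03% in NMDA 2 (1 PPS) and 29.1% in NMDA 3 (118). PPS of dsRNase alone were 8.93% in control 2 (20), 20% in control 3 (9), 37.1% in NMDA 2 (36) and 0.493% in NMDA 3 (2 PPS). The NMDA lists were thus at opposite ends, with almost no ssRNase-only long PPS in NMDA 2 and almost no dsRNase-only ones in NMDA 3. In neither class did the treatments separate (exact permutation p = 0.667 for ssRNase alone and 1 for dsRNase alone, adjusted 0.762 and 1). For dsRNase alone the difference of 4.34 points, NMDA minus control, turned to -11.1 at a threshold of 200 bp, to -7.62 over all strands as deposited, to -1.20 without control 2 and to -14.0 without NMDA 2.

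**Figure D1:**
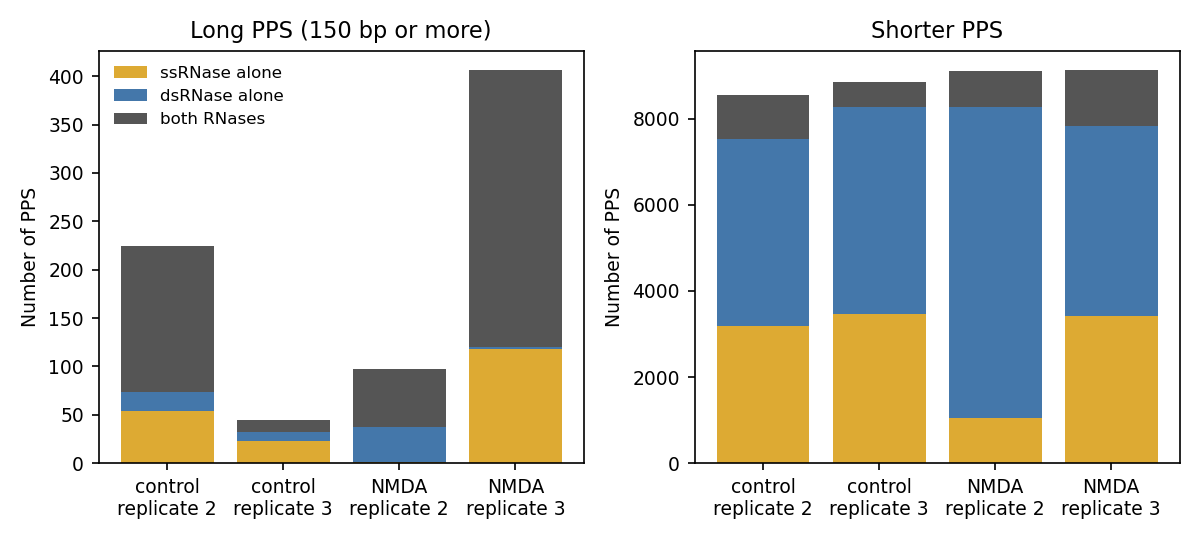
Number of long PPS (left) and shorter PPS (right) per list on the 7 plus strands, stacked by the RNase whose peaks they hold. NMDA 3 has 118 long PPS of ssRNase alone and 2 of dsRNase alone, and NMDA 2 has 1 and 36; vertical scales differ between the panels and start at 0.

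The numbers of peaks called per nuclease were themselves uneven across the lists. NMDA 2 held 1963 ssRNase peaks and 8235 dsRNase peaks on these strands, whereas the other lists held 4095 to 5206 and 5444 to 6261. Relative to the PPS available, 1.66%, 0.660%, 0.0959% and 3.34% of single ssRNase peaks were long in control 2, control 3, NMDA 2 and NMDA 3, and 0.460%, 0.187%, 0.496% and 0.0454% of single dsRNase peaks. The ssRNase share was the higher in 3 of 4 lists, NMDA 2 being the exception (mean difference 1.14 points, exact sign-flip permutation p = 0.25). Merged PPS were long in 12.7%, 2.15%, 6.74% and 18.1%. Single ssRNase PPS had a median length of 57, 54, 51 and 63 bp and single dsRNase PPS of 50, 40, 49 and 40 bp, so NMDA 3 combined the longest ssRNase peaks with dsRNase peaks as short as those of control 3. The part of these peak lengths in the number of long PPS was not tested.

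Within merged long PPS, 1 ssRNase peak with several dsRNase peaks was the commoner unequal arrangement. It accounted for 26.7% of them in control 2, 38.5% in control 3 (5 of 13), 31.7% in NMDA 2 and 31.1% in NMDA 3. The converse, 1 dsRNase peak with several ssRNase peaks, accounted for 13.3%, 15.4%, 8.33% and 9.79%. Between 45.3% and 49.3% held 1 peak of each RNase. Shorter merged PPS had the same order in every list, with 3.97%, 2.88%, 6.87% and 5.88% for the first arrangement and 3.00%, 1.02%, 1.57% and 2.17% for its converse. The higher-scoring peak of a merged long PPS was the ssRNase one in 58.0% in control 2, 46.2% in control 3, 8.33% in NMDA 2 and 81.5% in NMDA 3, so the NMDA lists differed most here too. Among shorter merged PPS these shares were 43.0%, 54.7%, 32.2% and 63.2%. The remainder includes ties, which numbered 4, 1, 0 and 1 among long and 104, 68, 15 and 11 among shorter merged PPS. In control 3 the ssRNase peak was higher in 6 merged long PPS and the dsRNase peak in 6.

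Long PPS scored higher than shorter ones within each list. The score is the authors', with no stated scale, and the highest score of a PPS's peaks was used to rank PPS inside a list. Its median was 11.98 for long and 6.82 for shorter PPS in control 2, 9.55 and 6.82 in control 3, 16.01 and 7.43 in NMDA 2, and 16.01 and 6.82 in NMDA 3. The mean of the 4 within-list differences was 6.42, and 4.55 among PPS of a single peak, where no maximum over several peaks enters. Score and length come from the same peak calls, so no test is given. Within lists, the median score was 5.86 under 50 bp and 17.35 at 300 bp or more in control 2, and 5.61 and 25.485 in NMDA 3. In NMDA 2 it was 5.61 and 19.61, and in control 3 5.57 and 6.875, the longest class holding 2 PPS in each of these lists. Control 3 had its highest class median, 10.405, at 200 to 299 bp.

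Recurrence in the other lists was measured at the midpoint base of each PPS, so that a long PPS gained nothing from its length. The midpoint lay inside a PPS of at least 1 other list for 85.3% of long PPS in control 2, 62.2% in control 3, 88.7% in NMDA 2 and 80.8% in NMDA 3. The corresponding values for shorter PPS were 67.8%, 56.5%, 62.2% and 58.0%. Long PPS recurred more in 4 of 4 lists, by 18.1 points on average. The exact two-sided sign-flip permutation test gave p = 0.125, the smallest value 4 lists allow (adjusted 0.125 over the 3 long-against-shorter comparisons). Among PPS merged from both RNases, midpoints were covered for 93.3% of long and 85.2% of shorter PPS in control 2. The values were 84.6% (13 long PPS) and 79.2% in control 3, 95% and 88.4% in NMDA 2, and 83.9% and 80.8% in NMDA 3. Merged PPS were a larger fraction of long than of shorter PPS in every list. The part of this makeup in the recurrence difference was not tested. Among PPS of a single peak the difference was 9.95 points (exact sign-flip p = 0.25), and by the first base 16.5 points (exact sign-flip p = 0.25), and in both control 3 went the other way, at -1.71 and -1.29 points. With long PPS defined from 200 bp it was 13.4 points (exact sign-flip p = 0.5), since in control 3 midpoints were covered for 37.5% of the 8 PPS of 200 to 299 bp and for neither of the 2 longer ones. Midpoints covered in all 3 other lists made up 16.96%, 11.1%, 24.7% and 11.3% of long PPS, and 7.23%, 9.45%, 7.996% and 6.0% of shorter PPS.

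**Figure D2:**
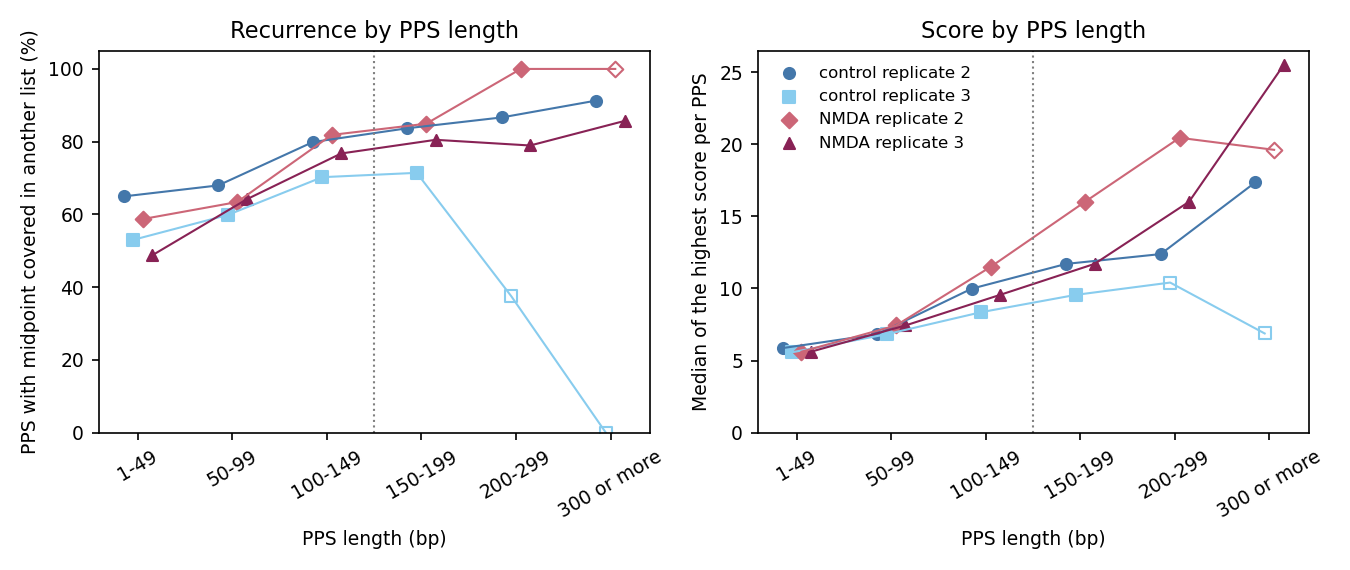
Percentage of PPS whose midpoint is covered in another list (left) and median of the highest score per PPS (right), against PPS length in bp, 1 line per list. Open symbols stand for fewer than 20 PPS and the dotted line marks 150 bp; pooled over lists, recurrence is 55.7% under 50 bp, 77.6% at 100 to 149 bp and 85.5% at 300 bp or more, and control 3 drops past 200 bp on 8 and 2 PPS.

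A midpoint covered elsewhere often lay in a PPS that was itself long. Of the covered midpoints, counted once for each other list, 39.6% of those from control 2 lay in a long PPS, 34.6% from control 3, 42.4% from NMDA 2 and 24.0% from NMDA 3. For shorter PPS the values were 6.38%, 9.44%, 9.83% and 3.11%. Long PPS were the higher in 4 of 4 lists, by 27.9 points on average; length chose the long PPS in every list, so no test is given. The highest coverage in any direction crossed the treatments, from control 2 into NMDA 3, the list with most long PPS. There 77.2% of the long midpoints of control 2 were covered, and 46.9% lay in a long PPS. In reverse, 62.8% of the long midpoints of NMDA 3 were covered in control 2, and 22.7% lay in a long PPS. For NMDA 2 the coverage was 72.2% in control 2 and 67.0% in NMDA 3. Of long midpoints covered in NMDA 3, 60.7% from control 2, 61.1% from control 3 and 63.1% from NMDA 2 lay in a long PPS. Over ordered pairs of lists, long midpoints were covered in 46.5% on average within a treatment (4 pairs, 28.1 to 67.0%) and 49.2% between treatments (8 pairs, 27.3 to 77.2%). These pairs share lists, so they are given side by side without a test.

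Where one list held a long PPS, another could hold several PPS. At least 2 PPS overlapped 52.0% of the long PPS of NMDA 3 in NMDA 2, 47.0% in control 2 and 33.3% in control 3. For the long PPS of control 2 these shares were 32.1% in control 3, 45.1% in NMDA 2 and 37.5% in NMDA 3, and for those of NMDA 2 44.3% in control 2, 37.1% in control 3 and 36.1% in NMDA 3. For the long PPS of control 3 the shares were 24.4% in control 2, 24.4% in NMDA 2 and 13.3% in NMDA 3. Only 1.68% to 3.09% of shorter PPS met several PPS of another list in this way, a measure to which length itself contributes.

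The longest stretch was of this kind. On chr17:31443378-31444685, NMDA 3 held a single PPS of 1308 bp merged from 3 ssRNase and 12 dsRNase peaks, with a highest score of 86.02. Control 2 held 7 PPS of 106 to 254 bp there, covering 1223 bp with 7 ssRNase and 10 dsRNase peaks. NMDA 2 held 7 PPS of 15 to 354 bp that covered 842 bp, and the 354 bp one was the longest of that list. Control 3 held 6 PPS of 27 to 85 bp that covered 344 bp. Control 2 and NMDA 3 thus covered nearly the same bases, and differed in whether the peaks were joined, whereas control 3 covered the least.

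On chr16:27014143-27014819 control 2 had its longest PPS, 624 bp from 2 ssRNase and 5 dsRNase peaks, and NMDA 3 had one of 608 bp from 1 ssRNase and 6 dsRNase peaks. NMDA 2 had 8 PPS of 10 to 115 bp across the same stretch, covering 472 bp. Control 3 had 2 PPS, of 20 and 71 bp. This stretch was therefore long in one list of each treatment, in several pieces in NMDA 2 and mostly uncovered in control 3, whose PPS covered 91 bp.

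**Figure D3:**
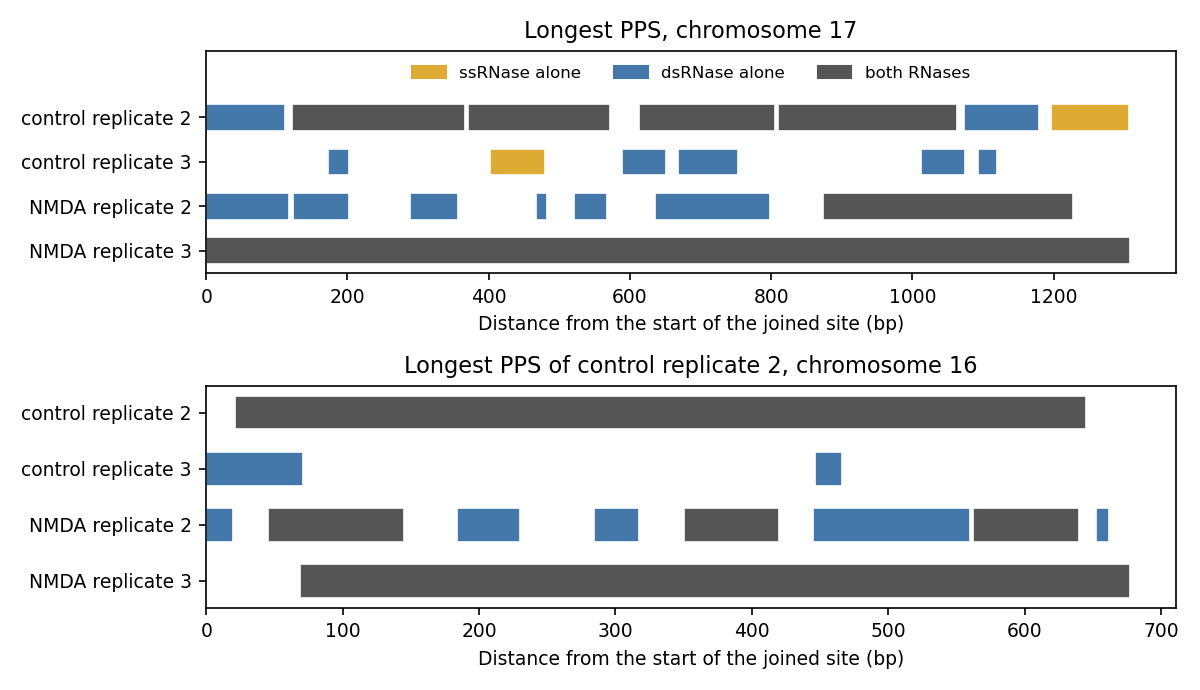
PPS of each list across the 2 stretches described, with distance in bp from the start of the joined site; each bar is 1 PPS, coloured by the RNase of its peaks. NMDA 3 has 1 bar of 1308 bp at the upper site where control 2 has 7 bars, and control 2 and NMDA 3 have 1 bar each, 624 and 608 bp, at the lower site.

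The longest PPS of single peaks were found in few other lists. Control 3 had its longest PPS, 407 bp at chr16:2317255-2317661, from 1 dsRNase peak with a score of 5.4, and no other list had a PPS there. The same held for its 371 bp ssRNase peak at chr20:8769648-8770018, with a score of 8.35. A dsRNase peak of 354 bp in NMDA 3, at chr12:46676319-46676672 with a score of 13.5, met a single 89 bp ssRNase PPS in control 2 and nothing in control 3 or NMDA 2. These 3 were named for their length as single peaks, not for their recurrence.

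PPS of all lists that overlapped by at least 1 bp were joined into sites, giving 19793 sites of which 545 held a long PPS. A joined site grows with the PPS in it, so presence counts of long sites are a description. PPS of all 4 lists were present at 358 of the 545 long sites and at 1181 of the 19248 sites without a long PPS, and a single list supplied 23 and 11566. Of the 545 long sites, 402 were long in 1 list, 118 in 2, 24 in 3 and 1 in all 4.

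The most sites long in both of 2 lists were shared across treatments. Control 2 and NMDA 3 were both long at 103 sites, which is 49.8% of the long sites of control 2 and 27.6% of those of NMDA 3. NMDA 2 and NMDA 3 shared 41 (46.1% and 10.99%), control 2 and NMDA 2 shared 31 (14.98% and 34.8%), and control 3 and NMDA 3 shared 12 (26.7% and 3.22%). The 2 control lists shared 7 (3.38% and 15.6%), and control 3 and NMDA 2 shared 2. Control 3, with 45 long sites, limits every pair it enters.

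No site was long in both lists of a treatment and free of PPS in the other. All 41 sites long in both NMDA lists had a PPS in a control list, and 38 had one in both. All 7 sites long in both control lists had a PPS in an NMDA list, and 6 had one in both. A count of 0 among 41 and 7 sites leaves room for a share above 0. Among sites without a long PPS, 616 of the 3177 present in both NMDA lists (19.4%) lacked control PPS, and 583 of the 3008 present in both control lists (19.4%) lacked NMDA PPS. Sites with a long PPS spanned a median of 211 bp and the other sites 54 bp. Length itself thus contributes to this contrast, which is a description. At 19 of the 41 sites neither control list was long, and at 3 of the 7 neither NMDA list was long. With a list left out, a single list stands for its treatment, and NMDA-specific and control-specific long sites numbered 3 and 11 without control 2, 0 and 6 without control 3, 10 and 1 without NMDA 2, and 4 and 0 without NMDA 3.

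The site long in all 4 lists was chr17:7797154-7797377. Its longest PPS measured 175 bp in control 2, 166 bp in control 3, 223 bp in NMDA 2 and 178 bp in NMDA 3, so the lists overlapped in length. In both control lists the long PPS was a single dsRNase peak, with scores of 23.6 and 19.37, and control 3 had a second PPS beside it, an 18 bp dsRNase peak with a score of 6.21. NMDA 2 merged 1 peak of each RNase there and NMDA 3 merged 2 ssRNase peaks with 1 dsRNase peak, with scores of 15.21 and 11.03. An ssRNase peak was thus called at this site in the NMDA lists and in neither control list; it is 1 site, chosen for its length.

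Of the 24 sites long in 3 lists, 20 were long in control 2, NMDA 2 and NMDA 3, 3 in control 2, control 3 and NMDA 3, and 1 in control 3, NMDA 2 and NMDA 3. PPS of all 4 lists lay at 23 of them. Over the sites the median longest PPS was 214 bp in control 2, 83 bp in control 3, 185.5 bp in NMDA 2 and 277 bp in NMDA 3, control 3 counting the 23 sites where it had a PPS. NMDA 3 was longest at 16, control 2 at 5 and NMDA 2 at 2, and at 1 site these 3 lists tied. At 20 of the 24, control 3 was the list without a long PPS. The following sites were picked after their values were seen. The site chr17:31497403-31498642 reached 311, 134, 227 and 792 bp in control 2, control 3, NMDA 2 and NMDA 3. The site chr19:56228377-56229623 reached 352, 144, 200 and 557 bp, and chr12:36640220-36641079 reached 579, 54, 210 and 394 bp, with control 2 above NMDA 3. At chr16:26988995-26989191 the PPS of control 2, NMDA 2 and NMDA 3 had the same start and end, 197 bp, from 4, 1 and 3 peaks, and control 3 had none.

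**Figure D4:**
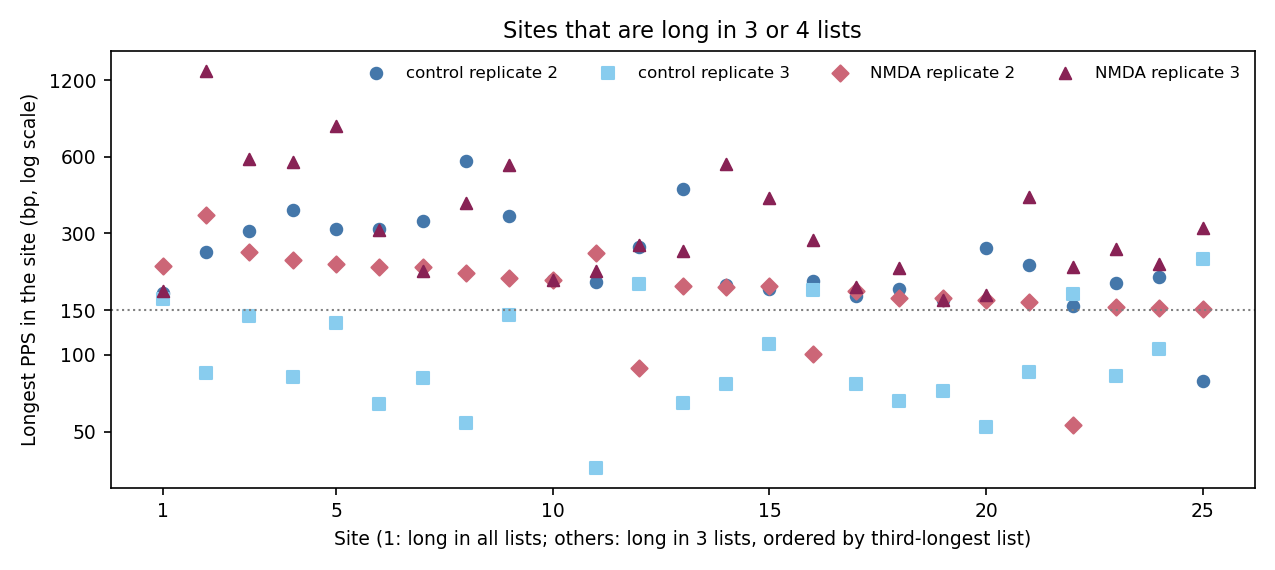
Length of the longest PPS of each list, in bp on a log scale, at the site long in all lists (site 1) and the 24 sites long in 3 lists; the dotted line marks 150 bp. Control 3 lies under the line at most sites, with a median of 83 bp, and NMDA 3 is the longest at 16 of the 24.

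Long PPS were crowded into few places in control 2, NMDA 2 and NMDA 3, whereas the 45 of control 3 lay in 43 windows of 100 kb. Of 1748 windows of 100 kb with a PPS, 269 held a long PPS, 134 held at least 2 over the lists, 50 at least 5 and 10 at least 10. A further long PPS of the same list lay in the window for 61.2% of long PPS in control 2, 8.89% in control 3, 49.5% in NMDA 2 and 76.1% in NMDA 3, and for 25.6%, 7.19%, 14.7% and 31.6% of shorter PPS. Clustering was thus low in the list with fewest long PPS and high in the list with most. The treatments differed by 27.8 points (mean 35.0% ± 37.0 for control and 62.8% ± 18.8 for NMDA, SD, n = 2; exact permutation p = 0.667, adjusted 0.762). This difference was 1.64 points without control 3, 14.5 without NMDA 3, 41.1 without NMDA 2 and 53.9 without control 2, and 2.96 over all strands as deposited.

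Windows around long PPS were richer in other long PPS than windows around shorter ones. The other PPS of the window were long in 7.83%, 4.72%, 4.59% and 15.3% around long PPS and in 2.49%, 0.493%, 1.02% and 3.91% around shorter PPS, whereas the median number of other PPS was 12 to 17 and 10 to 12. The control 3 value rests on the 8.89% of its 45 long PPS that had a further long PPS in the window. Its difference, long minus shorter, was -0.117 points at a threshold of 200 bp, -0.342 above the median score and 0.0919 in 200 kb windows. The nearest long PPS of the same list lay within 1000 bp for 34.4%, 4.44%, 39.2% and 55.7% of long PPS. For shorter PPS it did so in 8.72%, 1.70%, 3.40% and 10.2%. The median distance to the nearest other long PPS was 3143 bp in control 2, 3371700 bp in control 3, 44310 bp in NMDA 2 and 565.5 bp in NMDA 3. From a shorter PPS it was 373880, 2217250, 1418450 and 252311 bp in the same order, so in control 3 long PPS lay farther from another long PPS than shorter ones did. Neighbour lengths come from the same calls as the rule, so no test is given.

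The 5 windows with most long PPS held 102 of them (13.2%) and 1.72% of the shorter PPS. They were chosen for their long PPS, so this contrast is a description. By list they held 13.8% of the long PPS of control 2, 4.44% of control 3, 14.4% of NMDA 2 and 13.5% of NMDA 3. The window chr18:27100001-27200000 held 11 long PPS of 55 in control 2, 1 of 35 in control 3, 1 of 46 in NMDA 2 and 15 of 49 in NMDA 3, within 7967 bp. The window chr17:31400001-31500000, which contains the longest stretch, held 10 of 28, 0 of 31, 7 of 32 and 6 of 18 in the same order, spread over 57011 bp. The window chr11:16800001-16900000 held 5 of 40, 0 of 24, 1 of 44 and 13 of 35.

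The remaining windows of the 5 were weighted towards NMDA 3. The window chr16:21000001-21100000 held 2 of 56, 1 of 39, 3 of 60 and 13 of 39, and chr12:23800001-23900000 held 3 of 20, 0 of 19, 2 of 27 and 8 of 16, the latter within 3004 bp. Per 1000 long PPS of each list, the chromosome 16 window held 8.93, 22.2, 30.9 and 32.0. The chromosome 12 window held 13.4, 0, 20.6 and 19.7, so NMDA 2 was near NMDA 3 in either window on this scale. In each of these 5 windows NMDA 3 or control 2 held most long PPS and control 3 had at most 1, while its PPS numbers were 19 to 39. Windows dense in PPS were not necessarily dense in long ones: chr17:75300001-75700000 held 270 to 442 PPS per list with 4, 0, 5 and 2 long, and chr16:77100001-77300000 held 36 to 97 with none.

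**Figure D5:**
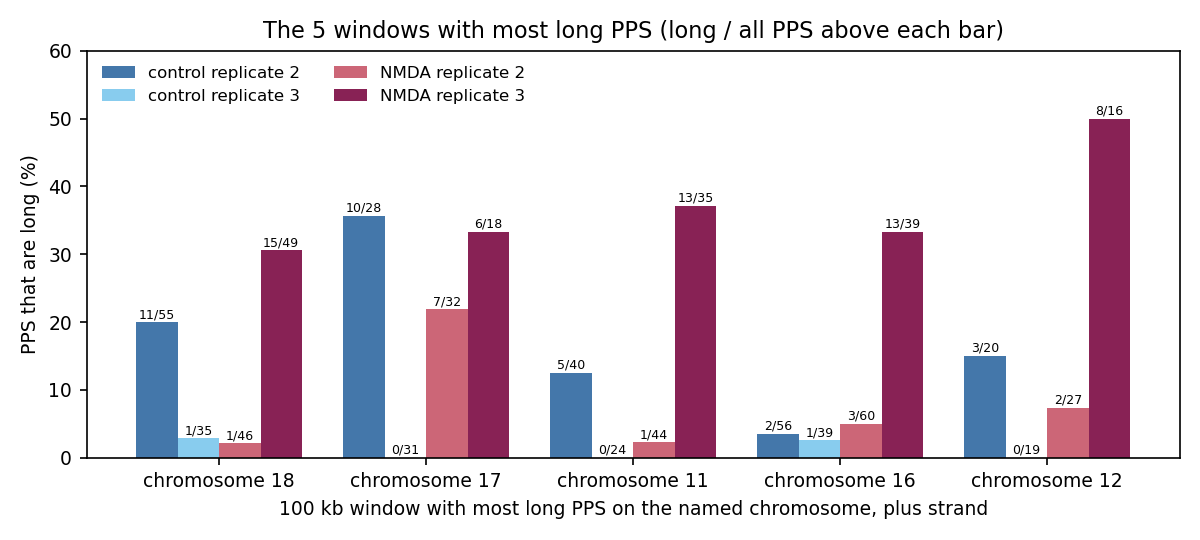
Percentage of PPS that are long in the 5 windows of 100 kb with most long PPS, 1 bar per list, with the long and total numbers above each bar. NMDA 3 reaches 50% in the chromosome 12 window (8 of 16) and control 3 is at 0 or 1 long PPS in every window shown.

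No window was called different between treatments in its number of long PPS. Long PPS per 1000 long PPS of the list, on the log2(value + 0.5) scale, were fitted with limma in the 21 windows with at least 8 long PPS. The model called 0 higher and 0 lower in NMDA (0% each) at an adjusted p under 0.05, with 0 at an unadjusted p under 0.05 and a smallest adjusted p of 0.875. The groups did not overlap with NMDA higher in 5 windows (23.8%) and with control higher in 0 (0%). Control 3 had no long PPS in 16 of the 21 windows and NMDA 2 had none in 7, so most differences rest on zeros. The median difference was 1.61 on that scale. The minimum of 8 was set on unscaled numbers summed over the lists, so NMDA 3, with most long PPS, counted most in choosing the windows. With 2 lists against 2, a separation of the groups alone gives p = 0.333 in the exact permutation test. The numbers of separated windows and the median difference are therefore descriptions.

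The share of a window's PPS that were long was fitted in the 243 windows with at least 8 PPS in every list, and this model called 3 windows, each resting on 1 or 2 long PPS. By limma's adjusted p, 2 were higher in NMDA (0.823% of those tested) and 1 was lower (0.412%), with 10 at an unadjusted p under 0.05 (4.12%). The groups did not overlap in 13 windows with NMDA higher (5.35%) and 6 with control higher (2.47%). The window chr17:75400001-75500000 had 2 long PPS of 93 in NMDA 2 and none in the other lists (difference 1.08 points, SE 0.206, adjusted p = 3.14e-05). The window chr19:43000001-43100000 had 1 of 39 in NMDA 3 alone (1.28 points, SE 0.331, adjusted p = 0.00995), and chr20:20400001-20500000 had 1 of 48 in control 2 alone (-1.04 points, SE 0.190, adjusted p = 1.56e-05). No long PPS lay in 99 of the 243 windows and long PPS of a single list in 67. The model shares variance over windows, and a window without long PPS has a spread of 0. The SEs of the 3 called windows are therefore smaller than the spread between their lists, and the calls are not read as treatment effects. With at least 4 long PPS over the lists required (52 windows), the model called 0 in either direction and 0 at an unadjusted p under 0.05.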

How the data were processed

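PIP-seq libraries of control and NMDA-treated rat cortical neurons were read as single reads of 50 bases, per the labels' protocols. Per the submitters' processing notes, cutadapt 1.2.1, TopHat2 2.0.10 and the rn6 build were used, in no stated role or order; the false discovery rate of 5% in the list names is per the labels. Each deposited list gives start and end positions, the names of the merged peaks and a deposited score per peak, with no read counts. Replicates were not pooled across lists. Positions are printed 1-based. The gene and sequence tables at hand are of another assembly and were not used.

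PPS of at least 150 bp were long. The 7 plus strands were taken because earlier work on these lists found shared, strand-switched or truncated blocks of peaks elsewhere; that search was not repeated. Windows were 100 kb, by midpoint; sites joined PPS overlapping by at least 1 bp. Exact two-sided permutation tests (NMDA against control) and sign-flip tests (long against shorter) ran over the 4 lists with Benjamini-Hochberg adjustment; window values were fitted with limma 3.58.1 in R 4.3.3 (eBayes with trend). Planned tests of score and neighbour length are not reported as tests, since both come from the peak calls used to choose long PPS. Python 3.11.15, numpy 2.4.6, pandas 2.3.3 and scipy 1.17.1 did the rest. Alternatives covered threshold, strands, score, RNase, merging, overlap rule, window size, filters, scaling, replicate block and leaving out each list. The code was tested on simulated data.

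Named regions were the longest PPS of each list, sites long in all 4 lists, up to 3 treatment-specific sites per direction (none existed), the 3 longest single-peak PPS, the 5 windows with most long PPS and windows past the limma threshold; others are marked as picked later. Members, lists and tests were chosen with earlier results of these data known.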

Additional observations from a re-analysis of the deposited data

How the results depend on the processing

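Over 179 alternative values, 140 kept their direction and side of the threshold. For the exact tests only the direction could change, since their smallest possible p-values lie above 0.05. With 4 lists these are 0.333 for the permutation test and 0.125 for the sign-flip test. Many window counts also stayed at 0, so the tally does not measure how firm the results are. The mean excess of midpoint recurrence and of score in long over shorter PPS stayed positive in all 12 and 11 alternatives run, although recurrence in control 3 turned to -1.29 by first base, -1.71 among single-peak PPS and -26.5 at 200 bp. The difference in dsRNase-only long PPS (4.34 points) turned to -11.1 at 200 bp and -7.62 over all strands as deposited, and leaving out each list gave -14.0 (without NMDA 2) to 22.6, with -1.20 without control 2. Leaving out each list gave -0.0650 (without control 3) to 0.692 for peaks per long PPS (0.313) and -0.815 (without control 3) to 37.3 points for the share of both RNases (18.2). It gave -37.5 to 271.5 for the number of long PPS, -0.473 to 2.73 points for their share and -1.70 to 9.72 points for protected bases, each lowest without NMDA 3 and highest without NMDA 2. Windows higher in NMDA by number of long PPS were 3 without control 2 and 0 otherwise. Long-share windows, higher and lower in NMDA (2 and 1), were 0 and 0 at 100 bp, at 200 bp, above the median score and with at least 4 long PPS over the lists. They were 1 and 1 with at least 4 PPS in every list, with the replicate block and with crossed pairing, and 8 and 11 over all strands as deposited. Leaving out a list gave 0 to 55 higher (55 without NMDA 2) and 0 to 22 lower (11 without control 2, 22 without control 3). NMDA-specific and control-specific long sites (0 and 0) were 4 and 1 at 100 bp. They were 3 and 11 without control 2, 0 and 6 without control 3, 10 and 1 without NMDA 2, and 4 and 0 without NMDA 3. The replicate block changed no other call; deviations of same-numbered lists correlated at 0.232 for long PPS per window and -0.377 for long shares, which is why crossed pairing was tried. The causes were not tested, except that leaving out a list leaves 1 list for its treatment, assumed in the models to vary like the other. Crossed pairing, the minimum of 4 long PPS, the settings without the 5 densest windows and the left-out lists for specific sites were added after seeing the data. Read depth is unknown, and 2 lists per group limit every treatment comparison.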
